A study of Mus musculus with 6 samples.

Results

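The 9 genes described here encode receptors and ligands of the colony-stimulating factor and RANK receptor system. Stem cell factor and a decoy receptor for RANK ligand are among their products. They are Csf1r, Csf1, Kitl, Csf2ra, Csf2rb, Csf2rb2, Csf3r, Tnfrsf11a and Tnfrsf11b, chosen by gene symbol, and each has 1 of the 27458 rows of the deposited gene table. RNA was sequenced from primary bone marrow macrophages of mice lacking RKIP (KO, RKIP-/-, 3 libraries) and of wild-type mice (WT, RKIP+/+, 3 libraries). RKIP, the Raf kinase inhibitor protein, is encoded by Pebp1, whose RNA was listed at 0 in every KO library, against 39.2, 33.2 and 39.0 FPKM in the WT libraries. All cultures of both genotypes had been treated with macrophage colony-stimulating factor (M-CSF), so the ligand of the Csf1r product was supplied to every sample and no culture without it, and none with RANK ligand, was measured. The age, sex and strain of the mice, and whether each library came from its own animal, were not given in the sources used here.

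Colony-stimulating factors are secreted proteins that keep myeloid cells alive and direct which kind of cell they become. M-CSF, the product of Csf1, acts through the tyrosine kinase receptor of Csf1r and is needed for macrophages and osteoclasts, while GM-CSF and G-CSF act through receptors without a kinase of their own that rely on Janus kinases. RANK, the product of Tnfrsf11a, is the receptor on osteoclast precursors that starts osteoclast formation when RANK ligand binds it, and osteoprotegerin, the product of Tnfrsf11b, is a soluble decoy that captures RANK ligand before it reaches RANK.

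Levels are given as FPKM, the fragments scaled by transcript length and library size, so that genes can be set beside each other. Libraries held 63607276 to 70059042 estimated counts in KO and 53188659 to 55255365 in WT, with about 4 counts for each sequenced fragment. A ± after a level is an SD over 3 libraries. Log2 fold changes are KO over WT from the quasi-likelihood test of edgeR on the estimated counts, with an approximate standard error after ±, and p-values were adjusted over the 11636 genes whose mean reached 1 FPKM. All 9 members passed that filter. The fold changes carry edgeR's own scaling and are smaller for most members than the ratio of the FPKM means. The cells had the markers of macrophages, with all 8 listed markers above 1 FPKM on average and Lyz2 highest among them. Of the 8, 2 rose and 4 fell, against 20.3% higher and 19.4% lower of all genes tested. Markers of bone-forming and stromal cells were also present, at a summed level over 13 genes of 905.4 to 1032 FPKM in KO and 931.9 to 1031 FPKM in WT. Most of that sum came from the collagen genes Col1a1, Col1a2 and Col3a1, and 4 of the 13 averaged under 1 FPKM. A set of 12 neutrophil markers summed to 7.63 to 8.16 FPKM in KO and 77.8 to 164 FPKM in WT. In such bulk samples fewer cells of a type and less RNA per cell cannot be told apart.

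Of the 9 members, 6 were higher in KO, 1 was lower and 2 did not pass the threshold. Kitl, Tnfrsf11a, Tnfrsf11b, Csf2rb2, Csf1r and Csf2rb rose, Csf2ra fell, and Csf1 and Csf3r were not called. Across all genes tested, 20.3% were called higher and 19.4% lower in KO, 39.7% in all. In limma on log2(FPKM + 1), 7 members were higher and 1 lower, against 23.8% higher, 14.1% lower and 37.9% in either direction of all genes tested. The median log2 fold change was 0.30 over the members and -0.01 over all genes tested. In 7 members every KO library stood above every WT library, against 32.4% of all genes tested, and in 1 every KO library stood below, against 19.1%.

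**Figure D1:**
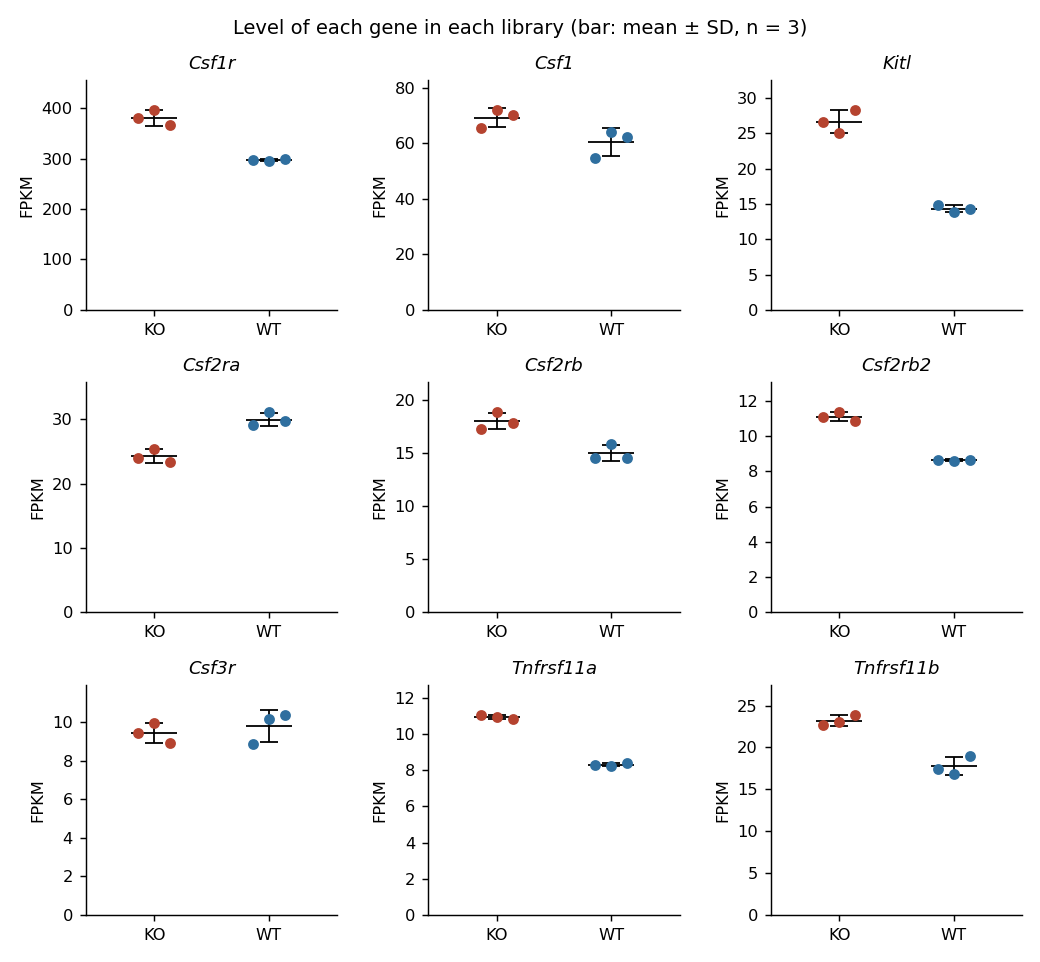
FPKM of each of the 9 genes in each library, with KO left of WT in every panel; points are libraries and bars are the mean ± SD of 3 libraries. The KO and WT points are apart in 8 panels, with Csf2ra the only one of these where KO is lower, and they overlap for Csf3r.

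Csf1r, the M-CSF receptor, was the most abundant member by a wide margin. Its level was 380.2, 396.5 and 365.7 FPKM in KO libraries 1 to 3 and 296.9, 295.7 and 299.96 FPKM in WT libraries 1 to 3. Every KO library was above every WT library, and the WT libraries differed by less than the KO ones, with a coefficient of variation of 4.05% in KO and 0.735% in WT. The log2 fold change was 0.30 ± 0.04, or 1.23-fold (95% interval 1.16 to 1.31, edgeR, adjusted p = 0.000104). By mean FPKM, Csf1r took place 72 among the genes tested in KO and place 104 in WT. It lies on the plus strand of chromosome 18 from 61100598 to 61131134 in the deposited coordinates.

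Csf1, which encodes M-CSF itself, had the second highest level of the 9. It stood at 65.6, 72.1 and 70.2 FPKM in the KO libraries and at 54.9, 64.3 and 62.3 FPKM in the WT libraries. The groups did not overlap, but the lowest KO and the highest WT value were close, and WT library 1 was below the other two. The difference did not pass the threshold (log2 fold change 0.14 ± 0.06, edgeR, adjusted p = 0.0716). It passed without WT library 2 (0.18, adjusted p = 0.0428) and shrank to 0.076 without WT library 1 (adjusted p = 0.221). It also passed with DESeq2 (0.15, adjusted p = 0.0220) and with limma on log2(FPKM + 1) (0.19, adjusted p = 0.0445). Further ligands of the family were low or not called. Il34, the other ligand of the M-CSF receptor, averaged 1.74 ± 0.415 FPKM in KO and 1.63 ± 0.205 FPKM in WT (adjusted p = 0.891). Csf3, which encodes G-CSF, was listed at 0 in the 3 KO libraries, against 0.282, 0.0727 and 0.128 FPKM in the WT libraries.

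Kitl, which encodes stem cell factor, the ligand of the receptor kinase Kit, changed most of the 9. Its level was 26.6, 24.98 and 28.3 FPKM in the KO libraries and 14.9, 13.8 and 14.3 FPKM in the WT libraries. The lowest KO library was far above the highest WT library. Kitl rose by 0.84 ± 0.05 on the log2 scale, or 1.79-fold (95% interval 1.65 to 1.94, edgeR, adjusted p = 7.71e-07), and 0.533% of all genes tested had a larger log2 fold change. The values rest on 2658 to 3098 fragments per library in KO and 1241 to 1366 in WT. Kit, its receptor, averaged 0.0485 ± 0.00669 FPKM in KO and 0.0830 ± 0.0303 FPKM in WT, far below its ligand in both genotypes and under the filter. Kitl spans 100015630 to 100100416 on the plus strand of chromosome 10, and its longest annotated transcript, at 5648 bp, is the longest among the members.

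The share of genes called higher differed with transcript length. Among the 933 other genes tested within 10% of the length of Kitl, the median log2 fold change was 0.12 and 40.4% were called higher, while among the 990 within 10% of the length of Csf2ra, 9.6% were. Each change was also fitted with an offset for transcript length and GC content, called the length-GC fit here. In it Kitl was higher by 0.58 ± 0.04 on the log2 scale (edgeR, adjusted p = 9.22e-07), a smaller value than the 0.84 above, and Csf1r was higher by 0.29 (adjusted p = 2.08e-05), almost as above. In the length-GC fit 7 members were called higher and 1 lower, the added one being Csf1 (0.16 ± 0.05, edgeR, adjusted p = 0.0263), against 16.8% higher, 14.7% lower and 31.5% in either direction of all genes in that fit.

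**Figure D2:**
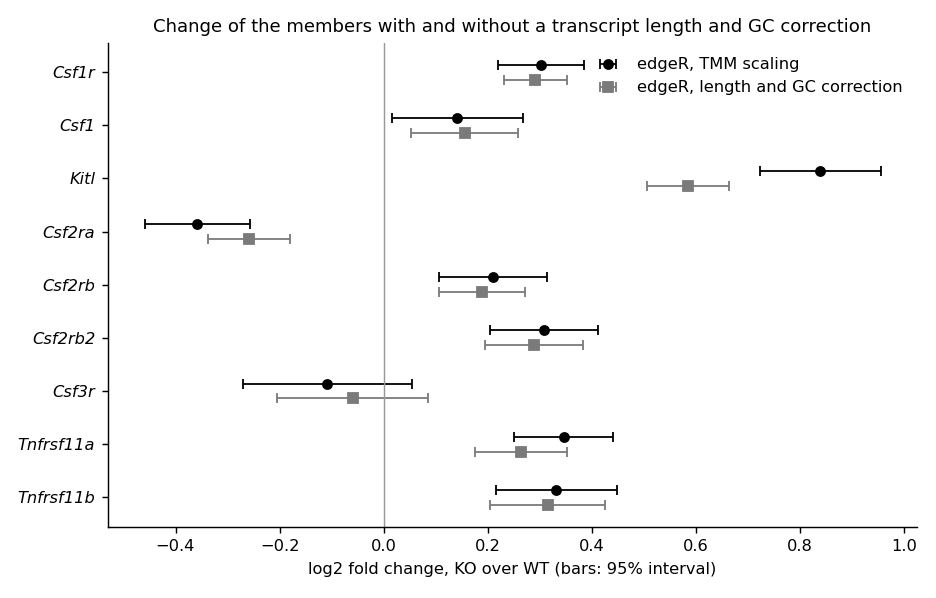
Log2 fold change of each member, KO over WT, with its 95% interval, from edgeR with TMM scaling (circles) and in the length-GC fit (squares). The corrected value of Kitl is 0.58 instead of 0.84, and no member changes sign.

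The GM-CSF receptor is built from a ligand-binding alpha chain, Csf2ra, and a signalling beta chain, Csf2rb, which in mice is shared with the receptors of interleukins 3 and 5. Mice carry a further beta chain gene beside it, Csf2rb2, whose product serves interleukin 3 alone. The alpha chain moved against both beta chains. Csf2ra had 23.97, 25.4 and 23.3 FPKM in the KO libraries, against 29.0, 31.1 and 29.7 FPKM in the WT libraries, so that every KO library was below every WT library. It fell by 0.36 ± 0.05 on the log2 scale, 1.28-fold (edgeR, adjusted p = 0.000121), and by 0.26 in the length-GC fit (adjusted p = 0.000300). Its longest transcript, 2277 bp, is the shortest among the members, and 990 other genes tested of like length had a median log2 fold change of -0.07.

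Csf2rb had 17.3, 18.9 and 17.9 FPKM in the KO libraries and 14.6, 15.9 and 14.6 FPKM in the WT libraries. It rose by 0.21 ± 0.05 on the log2 scale (1.16-fold, edgeR, adjusted p = 0.00434). Csf2rb2 had 11.1, 11.3 and 10.9 FPKM in the KO libraries and 8.66, 8.59 and 8.66 FPKM in the WT libraries. It rose by 0.31 ± 0.05 (1.24-fold, edgeR, adjusted p = 0.000387). For both beta chains the KO libraries were all above the WT libraries, and the WT values of Csf2rb2 were almost the same in the 3 libraries.

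The beta chain genes lie side by side on chromosome 15 and are transcribed away from each other, Csf2rb on the plus strand from 78325752 to 78351001 and Csf2rb2 on the minus strand from 78282507 to 78305721. The longest alignment between their longest transcripts held 3108 positions at 95.1% identity, with 140 mismatches and a longest identical run of 242 bases. It covered 63.3% of the Csf2rb transcript, and the bases outside it were not compared. Of all windows of 100 bases in that alignment, 11.1% were identical between the genes, and of windows of 150 bases 5.58%. Read pairs that lie wholly within such stretches cannot be assigned by sequence, so the split between the genes is uncertain. The lines below give the 60 coding bases of that alignment, without a gap, in which the genes differ most. The bases are read 5′ to 3′ from the GENCODE M21 transcripts, with the 13 mismatches in capitals. The stretch lies in exon 5 of Csf2rb at chr15:78338893-78338952 and in exon 4 of Csf2rb2 at chr15:78294379-78294438 (GRCm38), on the strand of each gene.
Csf2rb: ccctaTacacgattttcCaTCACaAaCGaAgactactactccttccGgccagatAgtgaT
Csf2rb2: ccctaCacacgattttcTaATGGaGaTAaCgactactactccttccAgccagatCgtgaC
With the counts of both genes summed, a choice made after seeing the data that does not depend on the split, the rise was 0.24 ± 0.04 (edgeR, adjusted p = 0.00131).

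In FPKM, the ratio of Csf2ra to Csf2rb was lower in every KO library than in any WT library. It was 1.38, 1.35 and 1.304 in the KO libraries and 1.99, 1.96 and 2.04 in the WT libraries, 0.57 lower on the log2 scale in KO. The ratio carries no correction for the transcript length trend. In the length-GC fit the log2 fold changes of Csf2ra and Csf2rb were -0.26 and 0.19. The exact two-sided permutation test gave p = 0.10, the smallest that 3 against 3 libraries allow (adjusted p = 0.20 over 4 ratios). It could therefore not pass the threshold of 0.05. The ratio of Csf2rb to Csf2rb2 was 1.56, 1.66 and 1.65 in the KO libraries and 1.68, 1.85 and 1.68 in the WT libraries, with no overlap but a small gap (exact permutation p = 0.10, adjusted p = 0.20). Il3ra, the alpha chain of the interleukin 3 receptor, averaged 5.20 ± 0.264 FPKM in KO and 5.27 ± 0.458 FPKM in WT (adjusted p = 0.518).

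**Figure D3:**
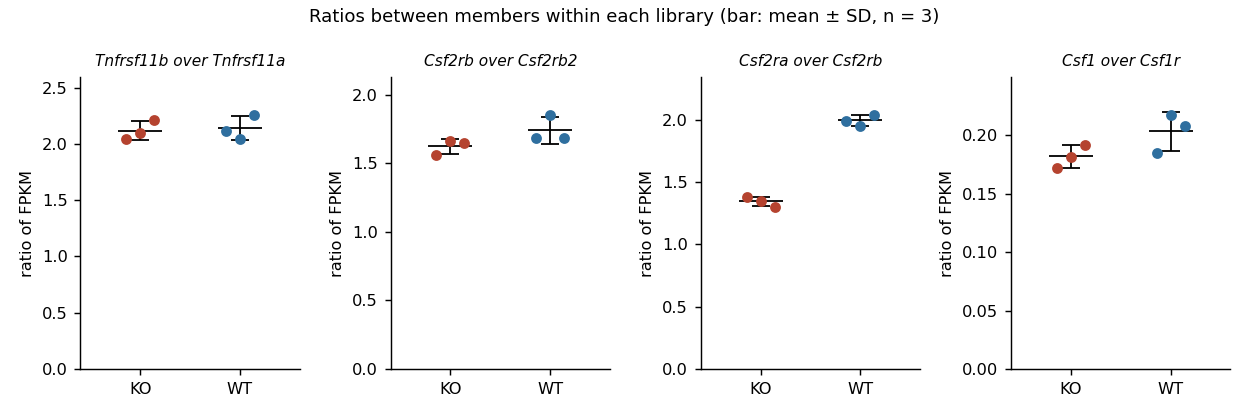
Ratio of the FPKM of a pair of members within each library, KO left of WT; points are libraries and bars the mean ± SD of 3 libraries. The ratio of Csf2ra to Csf2rb is 1.35 on average in KO and 2.00 in WT, while that of Tnfrsf11b to Tnfrsf11a overlaps between the genotypes.

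Csf3r, the G-CSF receptor, which is best known from neutrophils, was the one member whose groups overlapped. It had 9.41, 9.96 and 8.93 FPKM in the KO libraries and 8.85, 10.1 and 10.4 FPKM in the WT libraries. The log2 fold change of -0.11 ± 0.07 did not pass the threshold (95% interval -0.27 to 0.05, edgeR, adjusted p = 0.272). It ranged from -0.18 without WT library 1 (adjusted p = 0.0696) to -0.059 without WT library 3 and -0.065 without KO library 3, so its size rests on single libraries. All KO values lay between the lowest and the highest WT value. The neutrophil marker S100a9 stood at 0.479, 0.885 and 0.885 FPKM in the KO libraries, against 23.3, 72.1 and 75.6 FPKM in the WT libraries, and WT library 1 was the lowest WT library for both genes. Of the 12 markers, 8 were tested and all 8 fell, against 19.4% of all genes tested called lower. Except for Mmp8 (4.69 FPKM in KO), these 8 averaged under 1 FPKM in KO and passed the filter only through their WT level. They could thus hardly be called higher, and the count says little about direction. Among the untested markers, Ly6g, a surface protein that defines neutrophils, was listed at 0 in all KO libraries, against 0.678, 0.971 and 0.503 FPKM in the WT libraries. Cxcr2 and Mpo were also lower on average in KO, while Elane averaged 0.0758 FPKM in KO and 0.0449 FPKM in WT. What part of the Csf3r RNA came from such cells was not tested.

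Tnfrsf11a, which encodes RANK, differed between the genotypes with little spread. Its level was 11.1, 10.97 and 10.8 FPKM in the KO libraries and 8.27, 8.23 and 8.40 FPKM in the WT libraries. Every KO library exceeded every WT library, and the coefficient of variation was 1.17% in KO and 1.11% in WT. Tnfrsf11a rose by 0.35 ± 0.04 on the log2 scale (1.27-fold, edgeR, adjusted p = 0.000109), and by 0.26 ± 0.04 in the length-GC fit (adjusted p = 0.000576). The gene lies on the plus strand of chromosome 1 from 105780718 to 105847981.

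Tnfrsf11b, which encodes osteoprotegerin, rose by nearly the same amount. It had 22.6, 23.0 and 23.9 FPKM in the KO libraries and 17.5, 16.8 and 18.95 FPKM in the WT libraries, with no overlap. The log2 fold change was 0.33 ± 0.05 (1.26-fold, edgeR, adjusted p = 0.000515), and it was 0.31 in the length-GC fit. The ratio of osteoprotegerin to RANK RNA was 2.12 ± 0.0850 in KO and 2.14 ± 0.107 in WT (SD, n = 3 each, exact permutation p = 0.80), and it reversed its direction when KO library 1 or WT library 3 was left out. Tnfsf11, the gene of RANK ligand, averaged 0.184 ± 0.00632 FPKM in KO and 0.274 ± 0.0249 FPKM in WT, with 7.25 to 8 fragments per library in KO and 8.5 to 10.5 in WT, and was under the filter. Tnfrsf11b, Kitl and Csf1 are also known to be made by bone-forming and stromal cells. Of 13 markers of those cells, 9 were tested. Cdh11 rose and Pdgfrb and Alpl fell, 1 and 2 of the 9, against 20.3% higher and 19.4% lower of all genes tested. The share that fell was thus near that of all genes. The summed level of the 13, mostly collagen RNA, overlapped between the genotypes. It says little about the markers of low level. Among the untested ones, Lepr averaged 0.454 ± 0.0474 FPKM in KO and 0.266 ± 0.0369 FPKM in WT. Every KO library was above every WT library for Lepr, while Dcn, Lum and Bglap were lower on average in KO. The part of bone-forming and stromal cells in the results of Tnfrsf11b, Kitl and Csf1 was not tested. Of 8 osteoclast markers, 4 were tested. Acp5 and Ctsk fell and Atp6v0d2 and Itgb3 rose. These were 2 of the 4 in each direction, against 20.3% higher and 19.4% lower of all genes tested. Calcr, which is particular to mature osteoclasts, was listed at 0 in the KO libraries and at no more than 0.0254 FPKM in WT.

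**Figure D4:**
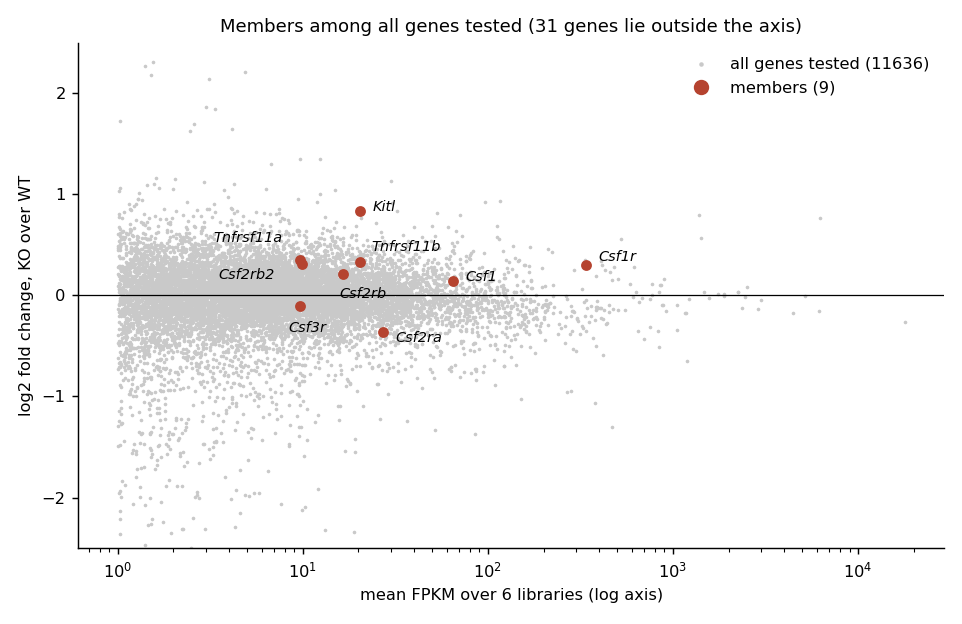
Log2 fold change, KO over WT, against the mean FPKM over 6 libraries (log axis) for the 11636 genes tested, in grey, and the 9 members, in red. Csf1r lies far to the right at a change of 0.30, Kitl is near the upper edge of the genes of its level, and Csf2ra and Csf3r are the members below 0.

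The order of the levels was much the same in both genotypes, with Kitl moving furthest. In KO it ran from Csf1r (381 FPKM) and Csf1 (69.3) through Kitl (26.6), Csf2ra (24.2), Tnfrsf11b (23.2), Csf2rb (18.0), Csf2rb2 (11.1) and Tnfrsf11a (10.9) to Csf3r (9.43). In WT it ran from Csf1r (298 FPKM) and Csf1 (60.5) through Csf2ra (29.9), Tnfrsf11b (17.8), Csf2rb (15.0), Kitl (14.3), Csf3r (9.79) and Csf2rb2 (8.64) to Tnfrsf11a (8.30). Among neighbours in that order, the libraries overlapped between Kitl and Csf2ra, Csf2ra and Tnfrsf11b, and Csf2rb2 and Tnfrsf11a in KO, and between Csf2rb and Kitl in WT. The ratio of Csf1 to its receptor Csf1r was 0.182 ± 0.00974 in KO and 0.203 ± 0.0166 in WT (SD, n = 3 each, exact permutation p = 0.20, adjusted p = 0.267), with overlap between the genotypes.

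The genes whose pattern over the 6 libraries was nearest to that of a member were found by the root mean square difference of the centred log2 CPM. Among 11635 other genes, the nearest to Csf1r were Tmx4 (0.016), Csf2rb2 (0.017) and Ctsf (0.023), where the median over all genes was 0.19. One of the 3 is thus itself a member. The nearest to Tnfrsf11a were Sbno1, Txndc16 and Inpp4a (0.017 to 0.019), and to Tnfrsf11b they were 5031425E22Rik, Arhgap19 and Akap13 (0.023 to 0.025). The nearest to Csf3r were the pseudogene Gm7446, Pxdn and Tubb2a (0.019 to 0.024). With 6 libraries in 2 groups this measure mostly follows the size of the change.

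Promoters are shown for 4 members with at least 239 bases before the start that lie in no annotated exon. These are Csf2ra, the one that fell, Csf2rb2 and Tnfrsf11a, which rose, and Csf1, whose call differed between fits. Csf3r and Kitl had 141 and 59 such bases and are not shown. Whether a motif bears on a direction of change was not tested. The sequences come from a promoter set based on RefSeq (GRCm38.p6). The set used here held 6 of the 9 members, which does not mean that RefSeq lacks the others. Each sequence gives the bases before the transcription start that lie in no annotated exon, on the strand of the gene. The motifs searched on both strands were PU.1 (GAGGAAGT, in 2.44% of 32851 promoters over the 250 bases before the start), C/EBP (TTGCGNAA, 0.670%), AP-1 (TGANTCA, 6.75%), the MiT family (TCACNTG, 14.2%), NF-kB (0.356%), the cAMP response element (TGACGTCA, 1.55%) and ETS (CCGGAAG, 6.91%). Capitals mark matches. Csf2ra at chr19:61228430-61228668 (minus) held the cAMP response element, beginning 81 bases before the end of the printed sequence; 11 exon bases between that end and the RefSeq start were left out, so it begins 92 bases before the start. Csf1 at chr3:107760470-107760719 (minus) held the NF-kB letters on the other strand, beginning 154 bases before the start. Csf2rb2 at chr15:78305722-78305971 (minus) and Tnfrsf11a at chr1:105780473-105780717 (plus) held none of the motifs. No motif overlapped another.
Csf2ra: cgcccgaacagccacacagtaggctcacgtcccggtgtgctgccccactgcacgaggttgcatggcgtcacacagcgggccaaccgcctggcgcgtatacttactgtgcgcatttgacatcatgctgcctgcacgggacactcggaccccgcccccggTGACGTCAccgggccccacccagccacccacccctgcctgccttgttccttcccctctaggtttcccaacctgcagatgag
Csf1: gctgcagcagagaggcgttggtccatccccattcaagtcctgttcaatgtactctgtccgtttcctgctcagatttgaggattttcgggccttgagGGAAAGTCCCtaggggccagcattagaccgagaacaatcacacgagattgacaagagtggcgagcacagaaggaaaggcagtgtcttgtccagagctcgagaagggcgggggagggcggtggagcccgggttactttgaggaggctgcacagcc
Csf2rb2: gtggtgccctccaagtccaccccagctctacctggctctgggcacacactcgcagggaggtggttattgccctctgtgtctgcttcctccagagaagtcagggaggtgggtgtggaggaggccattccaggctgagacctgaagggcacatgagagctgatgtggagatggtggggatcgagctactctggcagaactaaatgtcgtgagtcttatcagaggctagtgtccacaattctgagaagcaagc
Tnfrsf11a: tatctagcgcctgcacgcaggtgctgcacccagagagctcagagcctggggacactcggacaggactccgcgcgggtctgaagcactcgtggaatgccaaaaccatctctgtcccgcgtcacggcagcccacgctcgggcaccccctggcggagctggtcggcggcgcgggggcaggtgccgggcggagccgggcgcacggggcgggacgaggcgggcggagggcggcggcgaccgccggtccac

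Of 8 tested transcription factors known to act on Csf1r, 5 rose and 1 fell (62.5% and 12.5%, against 20.3% higher and 19.4% lower of all genes tested), and the median of the list was 0.24 on the log2 scale. Cebpb, a factor of myeloid differentiation, averaged 8.07 ± 2.06 FPKM in KO and 1.67 ± 0.240 FPKM in WT (log2 fold change 2.21 ± 0.18, edgeR, adjusted p = 6.61e-06). Its relative Cebpa, needed to form granulocyte and macrophage progenitors, averaged 59.4 ± 4.44 FPKM in KO and 39.4 ± 1.74 FPKM in WT (0.54 ± 0.06, adjusted p = 2.65e-05). Runx1 rose by 0.36 ± 0.04 (adjusted p = 5.09e-05) and Egr2 by 0.53 ± 0.13 (adjusted p = 0.00613). In the length-GC fit 5 were also called higher and 1 lower, against 16.8% and 14.7% of all genes, and Runx1 was at 0.22.

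Genes that act directly below the M-CSF receptor moved in both directions, 11 of 31 tested rising and 7 falling (median log2 fold change 0.06). These are 35.5% and 22.6%, against 20.3% and 19.4% of all genes tested, so the share that fell was near that of all genes. The docking protein gene Gab1 averaged 15.9 ± 0.389 FPKM in KO and 11.0 ± 0.442 FPKM in WT (0.48 ± 0.04, edgeR, adjusted p = 1.17e-05). Cbl, the ubiquitin ligase that marks the activated receptor for breakdown, averaged 26.6 ± 1.06 FPKM in KO and 19.0 ± 0.745 FPKM in WT (0.44 ± 0.05, adjusted p = 3.38e-05). The phosphoinositide 3-kinase genes Pik3cg and Pik3r1 rose by 0.37 and 0.42. Tyrobp, the adaptor DAP12, was singled out after its values were seen: it fell by 0.53 ± 0.06, to 243 ± 9.96 FPKM in KO, against 337 ± 31.5 FPKM in WT (adjusted p = 8.47e-05), and its value in the length-GC fit was -0.05 (adjusted p = 0.451). In that fit 8 of the list were higher and 5 lower (25.8% and 16.1%, against 16.8% and 14.7% of all genes), and Cbl, Pik3cg and Pik3r1 were smaller at 0.19, 0.23 and 0.22.

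Of 25 tested genes below RANK, 7 rose and 2 fell (28% and 8% of the list, against 20.3% and 19.4% of all genes tested), with a list median of 0.04 on the log2 scale. Cyld, which removes ubiquitin chains from RANK signalling proteins, averaged 6.23 ± 0.272 FPKM in KO and 4.53 ± 0.142 FPKM in WT (0.41 ± 0.05, edgeR, adjusted p = 5.83e-05). Mapk14, the p38 kinase, and Tab3, a partner of the kinase Tak1, rose by 0.19 and 0.34. Fos, a subunit of AP-1 required for osteoclasts, fell by 0.61 ± 0.10, to 3.42 ± 0.342 FPKM in KO, against 5.05 ± 0.301 FPKM in WT (adjusted p = 0.000788). In the length-GC fit 4 of the list were higher and 1 lower (16.0% and 4.0%, against 16.8% and 14.7% of all genes), so the share that rose was near that of all genes. Cyld was at 0.16 in that fit, and the call of Tab3 ended (adjusted p = 0.274).

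Of 12 tested genes of the JAK-STAT route used by the common beta chain and the G-CSF receptor, 3 rose and 4 fell (25.0% and 33.3%, against 20.3% and 19.4% of all genes tested). Jak1 rose by 0.23 ± 0.04, and the survival gene Bcl2l1 (-0.35 ± 0.05), Myc (-0.34 ± 0.07) and the feedback inhibitor gene Socs3 (-0.39 ± 0.08) were lower in KO (edgeR, adjusted p = 0.00120, 0.000221, 0.00179 and 0.00185 in that order). In the length-GC fit 1 was higher and 4 lower (8.33% and 33.3%, against 16.8% and 14.7% of all genes), with Jak1 at 0.15. A list of 5 genes held the proteases that release the membrane forms of these ligands and receptors, and their regulators. Of these, 2 rose and 0 fell (40% and 0%, against 20.3% and 19.4% of all genes tested). Adam10 and Adam17 rose by 0.18 ± 0.05 and 0.13 ± 0.04 (edgeR, adjusted p = 0.0108 and 0.0297). Both calls ended in the length-GC fit (adjusted p = 0.570 and 0.383). In that fit 0 of the list were higher and 1 lower (0% and 20%, against 16.8% and 14.7% of all genes). The call of Adam17 also ended without any 1 library other than KO library 1 (adjusted p = 0.0535 to 0.0926). Timp3 (77.9 ± 5.91 FPKM in KO and 82.4 ± 6.31 in WT) and Rhbdf1 (4.53 ± 0.614 FPKM in KO and 3.91 ± 0.218 in WT) did not pass, though Timp3 was called lower in the length-GC fit (-0.21, adjusted p = 0.0153), in DESeq2 (adjusted p = 0.0466), and without KO library 2 (adjusted p = 0.0312) or WT library 1 (adjusted p = 0.0329).

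Among 5 tested of the further ligands and receptors, 0 rose and 1 fell (0% and 20%, against 20.3% and 19.4% of all genes tested). The share that fell was thus near that of all genes. The gene was Sdc1, a proteoglycan to which interleukin 34 binds. It fell by 0.18 ± 0.05 (edgeR, adjusted p = 0.0117), although its KO and WT libraries overlapped in FPKM. Sdc1 did not pass with limma, at a pseudocount of 1 (adjusted p = 0.0986) or 0.1 (adjusted p = 0.1001), with no filter (adjusted p = 0.0855) and without WT library 2 (adjusted p = 0.0529). In the fit with no filter, 1 gene of the list other than Sdc1 was called lower. Lgr4, a further receptor for RANK ligand, averaged 2.28 ± 0.109 FPKM in KO and 1.87 ± 0.288 FPKM in WT (adjusted p = 0.128), which passed without WT library 3 (0.37, adjusted p = 0.0211), and Flt3l, the ligand of the receptor kinase Flt3, 1.41 ± 0.126 FPKM in KO and 1.23 ± 0.0837 FPKM in WT (adjusted p = 0.447). Of the 15 genes of this list, 12 had a row in the deposited gene table, and Csf2, Il3 and Il5ra were not analysed here.

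**Figure D5:**
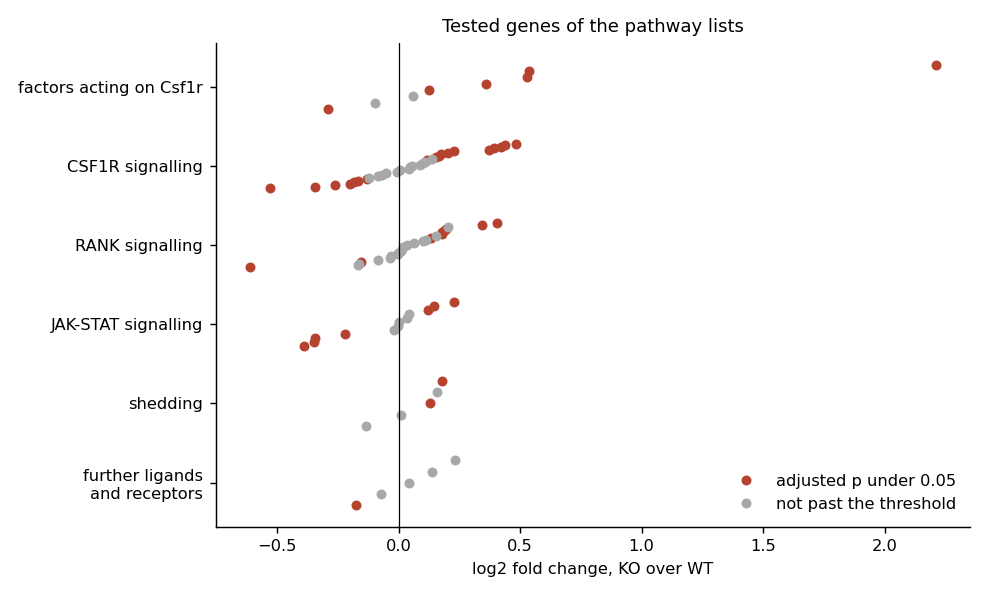
Log2 fold change, KO over WT, of the tested genes of 6 lists (rows), 1 point a gene, red where the adjusted p was under 0.05 and grey otherwise. Cebpb lies far to the right at 2.21, and the lists below M-CSF receptor and RANK spread to both sides of 0.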

How the data were processed

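RNA of 6 libraries of M-CSF cultures was measured, 3 KO and 3 WT, grouped by their titles. Per the labels' protocols, RNA was selected with oligo(dT) and libraries carried dUTP strand marking. The tools named in the submitters' processing notes, without their roles, are StringTie 1.3.4d, HISAT2 2.0.4 and cutadapt 1.9. The deposited table holds FPKM and estimated counts (rounded to whole numbers), both made by the authors; the build, and whether counting used the strand, were not given in the sources used here. Low counts of 4 were found 5769 times, against 3204 for 3 and 2041 for 5, so about 4 counts stand for 1 fragment. Coordinates are those of the table, identical to GENCODE M21 (GRCm38) for 23826 of 27458 genes and for all members but Csf1r and Csf2rb.

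The test was edgeR 4.0.16 (R 4.3.3) with glmQLFTest, TMM scaling, two-sided, Benjamini-Hochberg over 11636 genes, threshold 0.05. Standard errors are approximate, the size of the log2 fold change divided by the root of the F statistic. Transcript length and GC content (longest GENCODE transcript) entered as a loess offset per library (span 0.3). Members, lists and tests were chosen with earlier results of these data known. Named genes are the members, the 4 tested genes of each list with the smallest p, the 3 nearest in pattern to 4 members, and Pebp1. Named outside that rule, chosen after their values were seen, are Tyrobp, the ligand and receptor genes Il34, Csf3, Kit and Tnfsf11, and the single marker genes. Alternatives were limma 3.58.1 on log2(FPKM + 1) and log2(FPKM + 0.1), DESeq2 1.42.0, other filters and scaling, a replicate block and libraries left out. On simulated counts for KO against WT with 11636 genes, edgeR recovered 94% of 100 genes changed 2-fold and 56% of 100 changed 1.3-fold, with 7 false calls. Libraries of one group varied beyond counting noise (a chi-square of 3.65 to 7.44 for each degree of freedom), and each counts as 1 sample. Nothing says that they came from separate animals, so the p-values cover only their spread, perhaps a technical one. Sequences were aligned with blastn 2.17.0; tables and plots used Python 3.11.15, pandas 2.3.3 and matplotlib 3.10.9.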

Additional observations from a re-analysis of the deposited data

How the results depend on the processing

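Csf1r, Csf2ra, Csf2rb, Csf2rb2, Tnfrsf11a, Tnfrsf11b, Kitl and Csf3r kept their direction and their side of the threshold in every alternative run, as did 139 of 146 member values in all. The exception was Csf1, not called in the report, which passed in limma on log2(FPKM + 1) (0.19), limma on log2(FPKM + 0.1) (0.20), DESeq2 (0.15), in the length-GC fit (0.16), with the replicate block (0.14, adjusted p = 0.0210) and with block and length-GC offset together (0.16); with libraries left out in turn it ran from 0.076 to 0.18. The correlation of same-numbered libraries was 0.02, 0.19 and -0.04 across genes, so the block is a fit by number and not by a known pairing; it gave 2407 higher and 2294 lower genes, against 2364 and 2253 without it. Counts over all genes stayed within 1.5 times in all alternatives (1969 to 2272 higher and 1794 to 2047 lower with a library left out). In limma on log2(FPKM + 1), 62.8% of called genes were higher, against 51.2% in edgeR. Small list counts moved, and the cause was not tested. In the length-GC fit, with or without the block, higher genes were 4 (RANK), 1 (JAK-STAT) and 0 (shedding) and lower genes 1 (RANK) and 1 (shedding); the filter of 0.1 FPKM gave 1 higher JAK-STAT gene. Lower genes were 0 (further ligands), 1 (RANK) and 0 (factors acting on Csf1r) in both limma fits, 4 (M-CSF receptor signalling) with the pseudocount of 0.1, 0 (factors) with no filter, and 1 (shedding) in DESeq2 and with the replicate block. With a library left out, higher genes ran from 0 to 1 (further ligands, 1 without WT library 3), 1 to 2 (JAK-STAT, 1 without KO library 2 or 3 or WT library 2 or 3) and 1 to 2 (shedding, 2 only without KO library 1), and lower genes from 0 to 1 (further ligands, 0 without WT library 2), 1 to 2 (RANK, 1 without WT library 3) and 0 to 1 (shedding, 1 without KO library 2 or WT library 1). The ratio of Tnfrsf11b to Tnfrsf11a, at -0.01 on the log2 scale, ran from -0.044 to 0.027 and turned its sign to 0.013 without KO library 1 and 0.027 without WT library 3. Depth limits Tnfsf11, Kit and Csf3, each under 20 fragments per library.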
